A study of Mus musculus with 16 samples.

Results

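Interferon-stimulated genes are the genes that cells switch on when an interferon binds its receptor. A set of 37 of them was followed through RNA sequencing of mouse periodontal ligament, the connective tissue that holds a tooth root in its socket. The set was named gene by gene as members of the interferon response, and its counts were read from the table by gene identifier. All 37 matched 1 row each of the 55359 genes in the table, and all 37 were among the 20953 genes that passed the filter on low counts and were tested. The 16 libraries came from wild-type C57BL/6J male mice, 9 weeks old, in 4 groups of 4. Control mice had no treatment. Ligature mice had a silk thread tied round the upper left second molar, which brings on periodontitis. Trauma mice had composite resin built up on the chewing surface of the same tooth, so that it met the opposing teeth too hard (traumatic occlusion), and the fourth group had both the ligature and the resin. No time after the operation is stated in the labels. The tissue label is periodontal ligament, although the series is titled as a study of bone. The labels number the libraries from 1 to 4 within a group without saying that each came from 1 mouse, so a p-value here weighs a difference against the spread of libraries that may be technical replicates.

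Type I interferons and type III interferons act through STAT2 and IRF9, which bind as parts of a complex to the interferon-stimulated response element (ISRE) in the promoters of their targets. Interferon gamma, the type II interferon, acts on its targets through the gamma-activated site (GAS). The proteins made in response sense foreign nucleic acid, block viral RNA and translation, mark proteins for change, attack vacuoles that hold microbes and draw in lymphocytes, and in the periodontium they are known as part of the answer of resident cells and leukocytes to bacteria.

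Promoter sequence is shown for 6 members to let the reader see the elements that tie the set together. Of the 37 members, 28 matched an entry in a RefSeq table of promoters on GRCm38.p6 (the counts were made with GRCm39). Both strands of the 250 bases before each start were searched for the ISRE core, which is GAAA, any 2 bases and GAAA again, and for the GAS letters TTCNNNGAA. The ISRE core was present in 14 of the 28 members (50%), against 3.46% of all 27025 genes in the table and 2.98% of its 32851 promoters. The GAS letters were present in 7 of the 28 (25.0%), against 8.13% of all genes and 7.02% of promoters, and in 1 member, Bst2, a match of each overlapped. A match is a run of letters in this window and shows no binding. The stretches of 120 bases below read 5′ to 3′ on the strand of the gene and end at the base before the start, except that of Cxcl10, which runs from 250 to 131 bases upstream. Capitals mark the ISRE core matches in the first 5 and the GAS match in Irf1. On the other strand the ISRE core reads as TTTC, any 2 bases and TTTC.
Isg15 (chr4:156200819-156200938, minus strand): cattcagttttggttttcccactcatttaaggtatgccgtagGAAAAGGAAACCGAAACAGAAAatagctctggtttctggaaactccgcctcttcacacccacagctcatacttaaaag
Oas1a (chr5:120907526-120907645, minus strand): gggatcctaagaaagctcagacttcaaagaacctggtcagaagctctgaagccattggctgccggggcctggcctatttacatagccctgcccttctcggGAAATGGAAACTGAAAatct
Gbp3 (chr3:142559924-142560043, plus strand): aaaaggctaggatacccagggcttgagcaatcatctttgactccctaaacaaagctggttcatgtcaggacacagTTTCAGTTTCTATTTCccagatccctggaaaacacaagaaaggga
Ifit1 (chr19:34640769-34640888, plus strand): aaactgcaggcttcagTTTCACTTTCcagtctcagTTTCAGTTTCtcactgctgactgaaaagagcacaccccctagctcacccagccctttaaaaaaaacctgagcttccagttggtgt
Cxcl10 (chr5:92349020-92349139, minus strand): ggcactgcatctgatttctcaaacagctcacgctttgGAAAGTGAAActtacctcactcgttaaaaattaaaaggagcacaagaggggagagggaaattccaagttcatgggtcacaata
Irf1 (chr11:53769894-53770013, plus strand): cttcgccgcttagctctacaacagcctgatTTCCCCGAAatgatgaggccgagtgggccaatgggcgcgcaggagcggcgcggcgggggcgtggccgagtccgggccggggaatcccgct
Isg15 held 3 overlapping ISRE cores, Oas1a and Gbp3 held 2 overlapping ones each, Ifit1 held 2 that lie apart, and Cxcl10 held 1. Isg15, Oas1a and Gbp3 are among the members that passed a test here, and Ifit1 and Cxcl10 are members with an ISRE core that did not.

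Total counts ran from 58458102 to 77468584 a library. Expression is given in CPM, the count of a gene relative to the scaled total of its library. The markers of periodontal ligament fibroblasts were Postn, Aspn, Tnmd, Scx, Col1a1 and Col12a1. They were detected in every group and summed to 19128 to 56963 CPM. Oral epithelial keratins summed to 1153 to 10487 CPM in control and 3890 to 26115 CPM in trauma. With the ligature alone the keratins summed to 1242 to 2041.5 CPM, and with both treatments to 643 to 2264 CPM. The 3 libraries most shifted to short transcripts were ligature 2 and ligature plus trauma 2 and 3, called the shifted libraries below. Spearman's rho was taken between transcript length and a gene's difference from the other libraries of its group. Over 20881 genes it was -0.485, -0.354 and -0.370 in these 3. Control 3 and trauma 3, which were kept, leaned the same way, at -0.251 and -0.211. Over the members alone they were at -0.294 and -0.483, where ligature plus trauma 3 was at -0.353. The members that passed a test are given with and without the 3 shifted libraries. Macrophage markers summed to 375 to 627 CPM in control and 388 to 838 CPM in trauma. With the ligature alone their sum was 712 to 1141 CPM, and with both treatments 752 to 887 CPM. The 6 macrophage markers did not move together. Cd68 (37.2 to 146 CPM without and 277 to 551 CPM with a ligature) and Csf1r (42.7 to 158 and 131 to 467 CPM), which osteoclasts also express, were higher. Mrc1 (48.7 to 127 and 16.2 to 39.2 CPM) and Adgre1 (25.1 to 65.1 and 9.08 to 31.0 CPM) were lower. C1qa and C1qb overlapped widely, with means of 68.7 and 162 CPM in control and 64.8 and 134 CPM in ligature. T and NK cell markers summed to 0.801 to 7.52 CPM over all libraries, and in the 4 libraries of ligature plus trauma Cd8a and Ncr1 were at 0. B cell markers summed to 0.247 to 3.36 CPM. Neutrophil markers summed to 198 to 708 CPM in control and 567 to 4651 CPM in trauma. With the ligature alone they summed to 559 to 1334.5 CPM, and with both treatments to 616 to 3362 CPM. Their medians were 271 CPM in control, 906 in ligature, 3053 in trauma and 2156 in ligature plus trauma.

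A few of the 37 genes rose with the ligature, and none passed the test with the resin alone. A gene is said to pass where edgeR's quasi-likelihood test, with Benjamini-Hochberg adjustment over all 20953 genes, gave an adjusted p under 0.05, and every adjusted p below is from that test. In ligature plus trauma against control 7 members rose and none fell: Isg15, Oas1a, Bst2, Zbp1, Rtp4, Ifi44 and Gbp3. That is 18.9% of the set, where 6.83% of all genes tested rose, 5.62% fell and 12.5% passed in either direction. In ligature against control 1 member rose, Oas1a, or 2.70% of the set, and none fell, where 5.88% of all genes rose, 4.78% fell and 10.7% passed in either direction. With the ligature averaged over trauma, which sets 8 libraries against 8, the members that rose were 8 and none fell: the 7 above and Xaf1. That is 21.6% of the set, where 10.8% of all genes rose, 10.7% fell and 21.5% passed in either direction, so the share passing in either direction was near that of all genes. In bulk tissue a change in the number of cells that express a gene and a change in its RNA per cell cannot be told apart. Of the macrophage markers Cd68 and Csf1r were higher with the ligature and Mrc1 and Adgre1 lower, as given above. The summed markers were higher with the ligature for endothelial cells (111 to 238 CPM without and 397 to 534 CPM with it) and for osteoclasts (755 to 3723 CPM without and 9216 to 13312 CPM with it). The part of all these cells, and of the epithelium and neutrophils whose markers are given above, in these differences was not tested.

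In trauma against control 0 members passed, where 0.00477% of all genes did. At an unadjusted p under 0.05 there were 4, Oas1a, Zbp1 and Ifi44 with positive and Rsad2 with a negative fold change, against 6.92% of all genes. With trauma averaged over the ligature 0 members passed, where again 0.00477% of all genes did, and 2 had an unadjusted p under 0.05, where 5.66% did. Adding the resin to the ligature gave 0 members in edgeR, with 0 at an unadjusted p under 0.05, where 0% and 3.5% of all genes were called. The interaction, which asks whether the resin acted differently in the presence of the thread, also gave 0 and 0, where 0% and 4.93% of all genes were called. DESeq2 and limma-voom gave 0 members in these 4 comparisons too, where DESeq2 called 0.138% to 0.388% of all genes. The shares for DESeq2 are over the 32711 genes with any count, against 20953 in edgeR and limma-voom. In ligature plus trauma against trauma 0 members passed in edgeR and limma-voom, 4 (10.8%) had an unadjusted p under 0.05, and 2 passed in DESeq2, Isg15 and Rtp4. There 5.48% of all genes passed in edgeR, 2.21% higher and 3.27% lower, 4.45% passed in limma-voom, 19.4% had an unadjusted p under 0.05 in edgeR and 6.62% passed in DESeq2.

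Most members had positive fold changes in every comparison with control, whether or not they passed. In ligature against control 31 of 37 were positive with a median log2 fold change of 0.66, against a median of -0.05 and 47.6% positive over all genes tested, and without ligature 2 the members' median was 0.23. In trauma against control 31 were positive with a median of 0.39, against 0.01 and 50.8%, and without trauma 4 the members' median was 0.17. In ligature plus trauma against control 30 were positive with a median of 0.64, against -0.08 and 46.5%. These 3 comparisons share the 4 control libraries. The members' own ranges overlapped between groups in most cases. All 4 ligature libraries lay above all 4 control libraries for 9 members (Isg15, Oas1a, Oas2, Zbp1, Xaf1, Ifi44, Gbp2, Gbp3 and Irgm1), where 9.97% of all genes did so. The same held for 3 members in trauma (Ifit1, Isg15 and Oasl2), where 3.65% of all genes did, and for 9 in ligature plus trauma (Isg15, Oas1a, Oas2, Bst2, Zbp1, Ifi44, Gbp2, Gbp3 and Gbp5), where 10.8% did. No member lay wholly below control in ligature, trauma or ligature plus trauma, where 9.15%, 3.28% and 10.4% of all genes did. Between ligature plus trauma and ligature no member was wholly higher or lower, where 0.663% and 0.778% of all genes were.

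**Figure D1:**
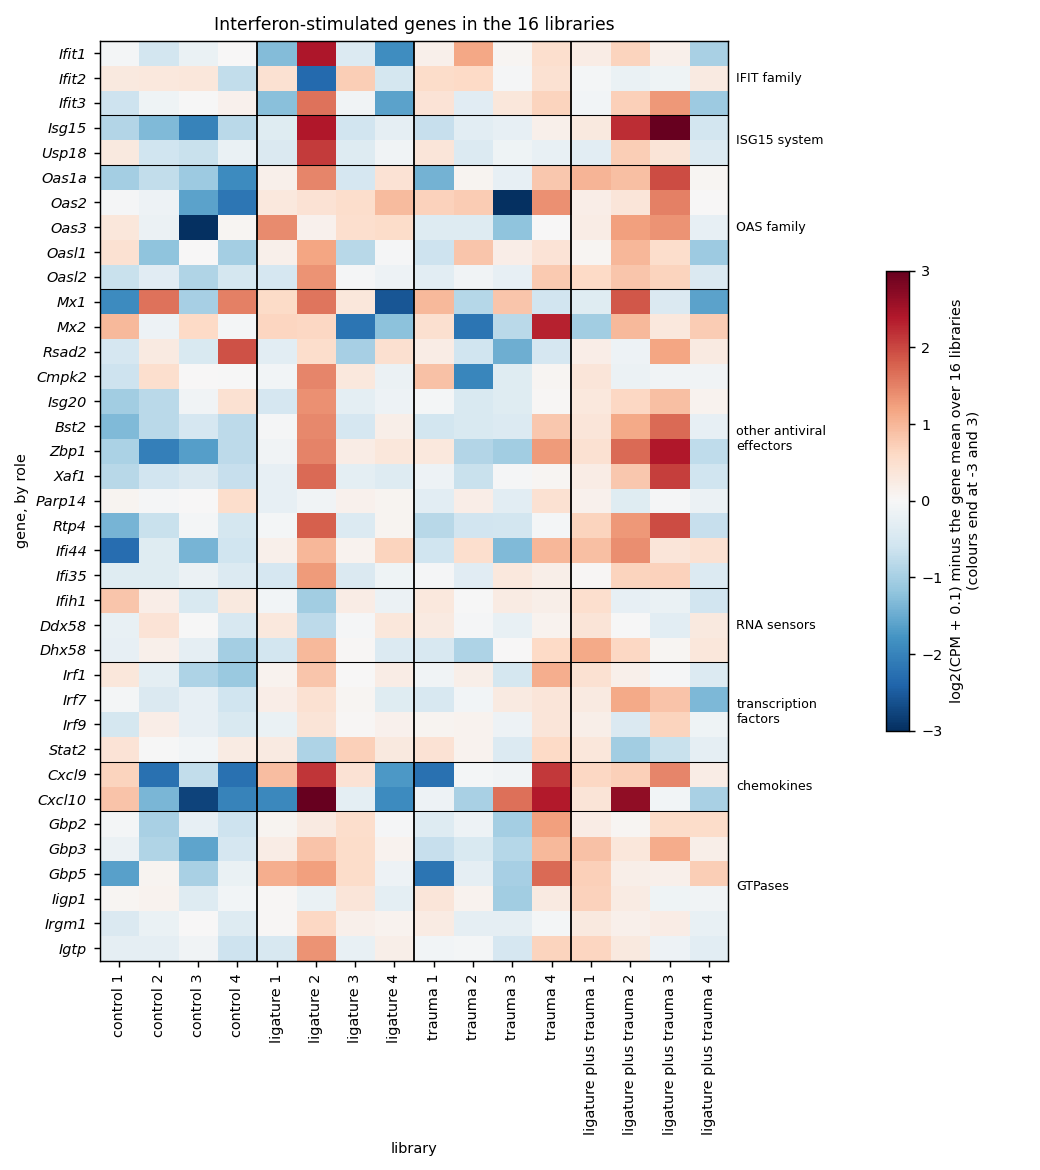
Heat map of the 37 genes (rows, by role) in the 16 libraries (columns, by group). Colour gives log2(CPM + 0.1) minus the gene's mean over the libraries, red for above and blue for below. Ligature 2 is red in most rows, ligature plus trauma 2 and 3 in many, and trauma 4 is red in most rows of the chemokines and GTPases; the rows differ widely within a group.

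The IFIT proteins bind foreign RNA and stop its translation, and none of the 3 genes passed in any comparison. In the order of their library numbers, Ifit1 stood at 11.1, 7.86, 10.1 and 11.8 CPM in control, 4.68, 62.9, 8.77 and 3.12 in ligature, 12.8, 26.1, 12 and 16.4 in trauma and 13.5, 18.5, 12.9 and 5.89 in ligature plus trauma. All 4 trauma libraries lay above the controls, and the ligature group held both the highest and the lowest of the 16 values. The log2 fold change of Ifit1 was 0.72 ± 0.69 (SE, edgeR adjusted p = 0.825) in trauma and 0.96 ± 0.70 (SE, edgeR adjusted p = 0.401) in ligature, each against control. Without the 3 shifted libraries the value in ligature was -0.90 ± 0.40 (SE, edgeR adjusted p = 0.197), on the other side of 0.

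Ifit3 stood at 10.9, 15.3, 16.7 and 18.4 CPM in control, 6.92, 51.8, 15.6 and 5.45 in ligature, 22.3, 13.2, 21.3 and 26.7 in trauma and 15.9, 27.3, 41.3 and 7.86 in ligature plus trauma. Ligature 2 was again the highest, and every group overlapped the controls. Ifit2 stood at 15, 15.2, 15.3 and 7.19 CPM in control, 16.8, 2.32, 20.2 and 8.44 in ligature, 17.8, 18.4, 11.9 and 16.6 in trauma and 11.6, 10.6, 11 and 14.7 in ligature plus trauma. It ran the other way in ligature 2, the lowest of all 16 libraries. For both genes the averaged effect of the ligature was small beside its error, 0.26 ± 0.42 (SE, edgeR adjusted p = 0.697) for Ifit3 and -0.29 ± 0.32 (SE, edgeR adjusted p = 0.554) for Ifit2. Reads of Ifit1 and Ifit3 could be shared with the similar neighbours Ifit1bl1 and Ifit3b.

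Isg15 encodes a ubiquitin-like protein that is joined to other proteins during the response, and it had the largest rise of the 37 in ligature plus trauma. Isg15 (ENSMUSG00000035692.8) stood at 2.1, 1.51, 0.901 and 2.21 CPM in control, 3.03, 21.2, 2.6 and 3.24 in ligature, 2.39, 3.13, 3.29 and 4.37 in trauma and 4.83, 18.5, 32 and 2.66 in ligature plus trauma. Every library of the 3 treated groups lay above all 4 controls, but ligature 2 and ligature plus trauma 2 and 3 stood far above the rest of their groups. The mean of Isg15 was 1.68 ± 0.603 CPM (SD, n = 4) in control and 14.5 ± 13.6 CPM (SD, n = 4) in ligature plus trauma. Above control on the log2 scale, Isg15 was higher by 3.11 ± 0.79 (SE, edgeR adjusted p = 0.0205) in ligature plus trauma, 2.16 ± 0.76 (SE, edgeR adjusted p = 0.0804) in ligature and 0.97 ± 0.74 (SE, edgeR adjusted p = 0.803) in trauma. Averaged over trauma, the effect of the ligature was 2.15 ± 0.54 (SE, edgeR adjusted p = 0.0102). Leaving out the 3 libraries shifted to short transcripts took the first of these values from 3.11 ± 0.79 to 1.15 ± 0.41 (SE, edgeR adjusted p = 0.15). Isg15 has a transcript of 756 bases, the shortest of the set.

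Usp18 removes ISG15 from its targets and damps the type I receptor. It stood at 8.35, 4.43, 4.22 and 5.91 CPM in control, 4.98, 29.5, 5.13 and 6.28 in ligature, 8.78, 5.05, 6.17 and 5.79 in trauma and 5.42, 11.4, 8.84 and 5.07 in ligature plus trauma. Apart from ligature 2, the ligature libraries lay within the range of the controls. No comparison passed, and the averaged effect of the ligature was 0.63 ± 0.36 (SE, edgeR adjusted p = 0.227).

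The OAS enzymes make short chains of adenylate on sensing double-stranded RNA, and these switch on RNase L. Oas1a (ENSMUSG00000052776.11) was the member that passed in all 3 comparisons of the ligature named above, and stood at 2.24, 2.74, 2.12 and 1.18 CPM in control, 5.15, 12.9, 3.23 and 6.3 in ligature, 1.67, 4.92, 3.86 and 8.11 in trauma and 9.43, 8.76, 18.3 and 4.79 in ligature plus trauma. All 8 libraries with a ligature lay above the 4 controls, while trauma 1 lay among the controls. The mean was 2.07 ± 0.65 CPM (SD, n = 4) in control, 6.91 ± 4.22 CPM in ligature and 10.3 ± 5.7 CPM in ligature plus trauma. On the log2 scale Oas1a was above control by 1.74 ± 0.52 (SE, edgeR adjusted p = 0.0452) in ligature, 2.32 ± 0.53 (SE, edgeR adjusted p = 0.0128) in ligature plus trauma and 1.16 ± 0.52 (SE, edgeR adjusted p = 0.705) in trauma. Without the 3 shifted libraries the rise in ligature plus trauma was 1.77 ± 0.53 (SE, edgeR adjusted p = 0.089), a smaller loss than that of Isg15. The Oas1 genes are near-identical copies in the mouse, so the share of these reads that belongs to Oas1a is uncertain.

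Oasl2, an OAS-like gene, stood at 9.75, 12.2, 8.36 and 10.8 CPM in control, 10.9, 39.7, 15.3 and 14.1 in ligature, 12.5, 14.5, 13.2 and 27 in trauma and 23.9, 28, 24.7 and 11.5 in ligature plus trauma. All 4 trauma libraries lay above the controls, by a log2 fold change of 0.71 ± 0.39 (SE, edgeR adjusted p = 0.757), and ligature plus trauma 4 lay among the controls. Oas3 stood at 1.23, 0.831, 0 and 0.997 CPM in control, 2.71, 1.05, 1.4 and 1.44 in ligature, 0.712, 0.703, 0.356 and 0.963 in trauma and 1.13, 2.39, 2.56 and 0.783 in ligature plus trauma. Control 3 had no count of Oas3, which in 77468584 counts allows up to 3 counts, or 0.0387 CPM of the unscaled total, while the other controls were close to 1 CPM. Neither gene passed, and the averaged effect of the ligature was 0.68 ± 0.27 (SE, edgeR adjusted p = 0.0886) for Oasl2 and 1.22 ± 0.62 (SE, edgeR adjusted p = 0.168) for Oas3.

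Among the other antiviral effectors, Bst2, Zbp1, Rtp4, Ifi44 and Xaf1 rose with the ligature. Bst2 (tetherin), which holds budding virus at the cell surface, stood at 7.93, 11.3, 14.1 and 11.5 CPM in control, 19.4, 53.9, 14 and 22.4 in ligature, 13.5, 14.4, 15 and 34.8 in trauma and 25.5, 43.7, 65.1 and 16.9 in ligature plus trauma. The 4 libraries of ligature plus trauma lay above the controls, and ligature 3 and trauma 1 lay among them. Bst2 rose by 1.75 ± 0.47 (SE, edgeR adjusted p = 0.0255) on the log2 scale in ligature plus trauma and 1.13 ± 0.33 (SE, edgeR adjusted p = 0.022) averaged over trauma. Zbp1, a sensor of left-handed nucleic acid that can start necroptosis, stood at 0.834, 0.34, 0.476 and 0.955 CPM in control, 1.59, 5, 2.02 and 2.21 in ligature, 2.15, 0.879, 0.783 and 4.3 in trauma and 2.4, 5.82, 9.43 and 0.967 in ligature plus trauma. All 8 libraries with a ligature lay above the controls, and so did trauma 1 and trauma 4, while trauma 2 and 3 lay among the controls. Zbp1 had log2 fold changes of 2.83 ± 0.72 (SE, edgeR adjusted p = 0.0205) in ligature plus trauma, 2.05 ± 0.70 (SE, edgeR adjusted p = 0.0712) in ligature and 1.62 ± 0.49 (SE, edgeR adjusted p = 0.0263) averaged over trauma.

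Rtp4, a chaperone of receptors that interferon induces, stood at 6.65, 11.1, 17 and 12.3 CPM in control, 17, 61.5, 13.3 and 18.6 in ligature, 9.9, 11.7, 11.9 and 16.9 in trauma and 28.3, 43.7, 68.3 and 10.9 in ligature plus trauma. Libraries 1 to 3 of ligature plus trauma lay above the controls and library 4 among them. Rtp4 rose by 1.68 ± 0.53 (SE, edgeR adjusted p = 0.0469) on the log2 scale in ligature plus trauma and 1.41 ± 0.37 (SE, edgeR adjusted p = 0.0134) averaged over trauma. Ifi44 stood at 0.592, 2.51, 1.18 and 2.12 CPM in control, 3.61, 6.62, 3.51 and 5.23 in ligature, 2.11, 4.7, 1.25 and 6.59 in trauma and 6.21, 8.7, 4.18 and 4.54 in ligature plus trauma. All 8 libraries with a ligature lay above the controls, and ran from 3.51 to 8.7 CPM. Against control the log2 change of Ifi44 was 1.88 ± 0.53 (SE, edgeR adjusted p = 0.0309) in ligature plus trauma, 1.57 ± 0.52 (SE, edgeR adjusted p = 0.0649) in ligature and 1.13 ± 0.36 (SE, edgeR adjusted p = 0.037) averaged over trauma. Xaf1, which counters an inhibitor of cell death, stood at 6.66, 7.93, 8.67 and 7.28 CPM in control, 9.95, 38.7, 9.61 and 9.1 in ligature, 10.7, 7.44, 11.6 and 12.3 in trauma and 13.9, 20.9, 50.1 and 7.81 in ligature plus trauma. Ligature 2 and ligature plus trauma 3 were far above the others, and ligature plus trauma 4 lay among the controls. Xaf1 passed with the ligature averaged over trauma, at 1.14 ± 0.37 (SE, edgeR adjusted p = 0.0377), and not in ligature plus trauma against control, at 1.60 ± 0.53 (SE, edgeR adjusted p = 0.0577).

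**Figure D2:**
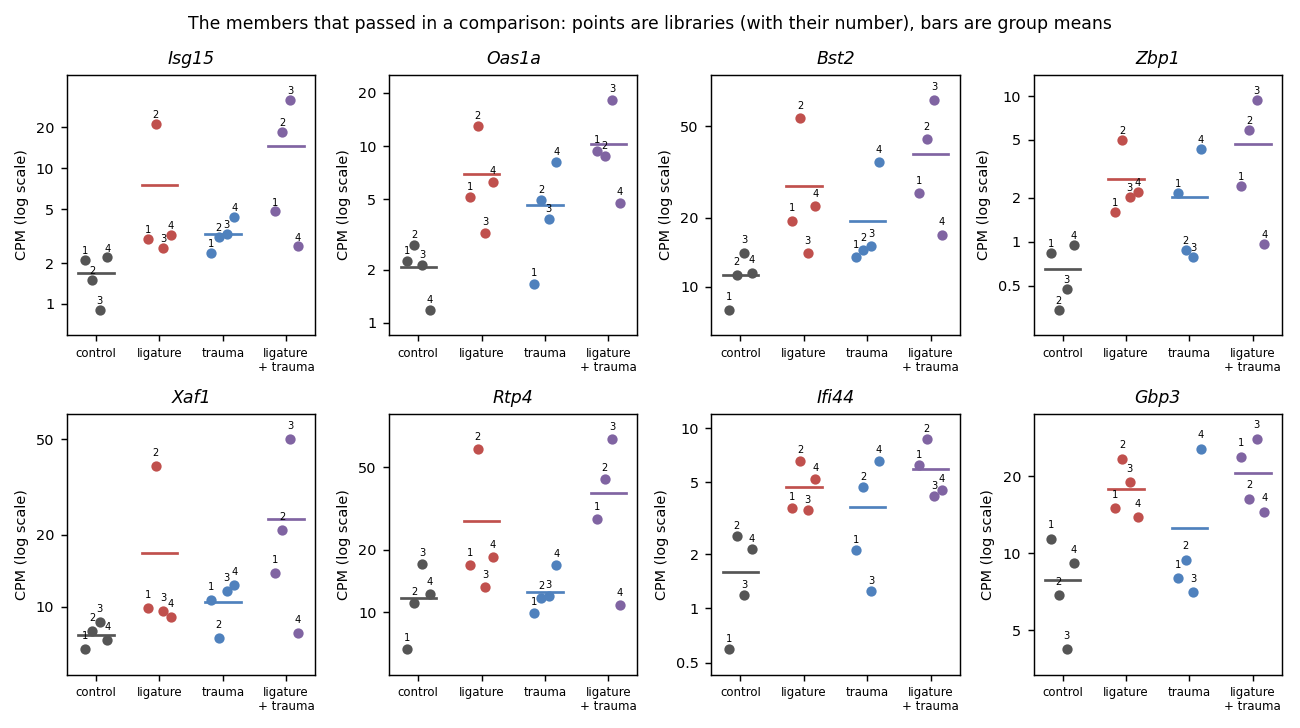
CPM (log scale) of the 8 genes that passed in a comparison, 1 point a library with its number, in the 4 groups; horizontal bars are group means. In Isg15, Bst2, Zbp1, Xaf1 and Rtp4, ligature 2 and ligature plus trauma 2 and 3 are the highest of their groups. These 3 libraries raise the group means there. In Isg15, Oas1a, Zbp1, Ifi44 and Gbp3 all libraries of both ligature groups lie above all controls. For Zbp1 the margin is narrow, at 0.967 CPM in ligature plus trauma 4 against 0.955 CPM in control 4.

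The cytoplasmic RNA sensors, which start interferon production and are themselves induced by it, did not pass. Ifih1 (MDA5) stood at 16.8, 10.8, 6.79 and 11.5 CPM in control, 8.8, 4.45, 10.9 and 8.2 in ligature, 11.7, 9.3, 11.1 and 10.6 in trauma and 13.2, 7.79, 8.11 and 6.2 in ligature plus trauma. Control 1 was the highest and ligature 2 the lowest of the 16. Ddx58 (RIG-I) stood at 14, 22, 16.4 and 11.8 CPM in control, 20.4, 9.53, 16.1 and 20.7 in ligature, 19.9, 16, 14.1 and 17.8 in trauma and 21.5, 16.4, 13.3 and 20.2 in ligature plus trauma. The groups overlapped, and the averaged effect of the ligature, 0.06 ± 0.19, had a 95% interval of -0.33 to 0.46. Dhx58 (LGP2) stood at 1.99, 2.68, 1.98 and 1.14 CPM in control, 1.59, 4.78, 2.46 and 1.78 in ligature, 1.68, 1.21, 2.4 and 3.7 in trauma and 5.4, 3.71, 2.51 and 3.04 in ligature plus trauma. Its highest value was in ligature plus trauma 1, and its averaged effect was 0.57 ± 0.32 (SE, edgeR adjusted p = 0.208), against -0.39 ± 0.22 (SE, edgeR adjusted p = 0.232) for Ifih1.

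Of the transcription factors, Irf9 and Stat2 carry the type I signal, Irf7 amplifies it and Irf1 serves interferon gamma, and none passed. Irf1 stood at 44.2, 28.6, 18.5 and 16.3 CPM in control, 37.7, 62.8, 35.3 and 41.3 in ligature, 32.7, 39.4, 24.3 and 75.3 in trauma and 48.3, 38.9, 34.4 and 26.5 in ligature plus trauma. Trauma 4 and ligature 2 were the 2 highest, and the groups overlapped. Irf7 stood at 7.19, 5.56, 6.31 and 4.92 CPM in control, 8.72, 10.5, 7.88 and 5.87 in ligature, 5.4, 7.09, 9.16 and 9.79 in trauma and 9.07, 16.6, 13.7 and 2.92 in ligature plus trauma. Ligature plus trauma held the 2 highest values and also the lowest. Irf9 stood at 16.3, 26.6, 19.7 and 16.9 CPM in control, 20.3, 30.4, 23.9 and 25.7 in ligature, 24.7, 25.3, 21 and 30.1 in trauma and 26.6, 17.2, 37 and 21.5 in ligature plus trauma, with every group overlapping the controls. The averaged effects of the ligature were 0.25 ± 0.26 (SE, edgeR adjusted p = 0.51) for Irf1, 0.44 ± 0.28 (SE, edgeR adjusted p = 0.269) for Irf7 and 0.18 ± 0.17 (SE, edgeR adjusted p = 0.489) for Irf9.

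The chemokines Cxcl9 and Cxcl10, which draw T cells through CXCR3, differed widely between libraries of a group. Cxcl10 (ENSMUSG00000034855.14) stood at 4.23, 0.817, 0.244 and 0.492 CPM in control, 0.52, 55.6, 1.83 and 0.538 in ligature, 2.03, 1.12, 7.31 and 12.2 in trauma and 2.99, 15, 2.13 and 1.12 in ligature plus trauma. Ligature 2 was 57.8-fold above the mean of the other 3 ligature libraries, which lay within the range of the controls. The log2 fold change of Cxcl10 in ligature against control, 3.33 ± 1.44 (SE, edgeR adjusted p = 0.148), turned to -0.61 without ligature 2. Cxcl9 stood at 0.64, 0, 0.18 and 0 CPM in control, 0.788, 1.97, 0.536 and 0.0414 in ligature, 0, 0.351, 0.338 and 1.95 in trauma and 0.621, 0.671, 1.18 and 0.445 in ligature plus trauma. It had no count in 2 controls and 1 trauma library, ligature 2 and trauma 4 were the 2 highest, and its averaged effect of the ligature was 1.07 ± 1.03 (SE, edgeR adjusted p = 0.488).

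The guanylate-binding proteins and immunity-related GTPases attack the vacuoles of intracellular microbes, and 1 of the 6 genes passed. Gbp3 (ENSMUSG00000028268.15) stood at 11.3, 6.85, 4.21 and 9.13 CPM in control, 15, 23.4, 18.9 and 13.8 in ligature, 7.98, 9.41, 7.03 and 25.5 in trauma and 23.7, 16.3, 27.9 and 14.5 in ligature plus trauma. All 8 libraries with a ligature lay above the controls, and trauma 4 was far above the other trauma libraries, which lay among the controls. Gbp3 had log2 fold changes of 1.38 ± 0.41 (SE, edgeR adjusted p = 0.038) in ligature plus trauma, 1.17 ± 0.41 (SE, edgeR adjusted p = 0.0744) in ligature, 0.66 ± 0.40 (SE, edgeR adjusted p = 0.766) in trauma and 0.95 ± 0.29 (SE, edgeR adjusted p = 0.0268) averaged over trauma. Gbp5 stood at 0.483, 1.81, 0.824 and 1.47 CPM in control, 3.74, 4.14, 2.56 and 1.52 in ligature, 0.295, 1.39, 0.8 and 5.82 in trauma and 2.86, 1.94, 1.91 and 2.93 in ligature plus trauma. The libraries of ligature plus trauma lay above the controls, and trauma spanned the lowest and the highest of the 16. Irgm1 stood at 27.8, 33, 38.2 and 28.7 CPM in control, 38.6, 58.7, 42.2 and 40.8 in ligature, 45, 31.2, 31.4 and 36.5 in trauma and 46.8, 42, 44.2 and 32.3 in ligature plus trauma. The ligature libraries lay just above the controls, and ligature plus trauma 4 did not. The averaged effects were 0.80 ± 0.49 (SE, edgeR adjusted p = 0.258) for Gbp5 and 0.35 ± 0.14 (SE, edgeR adjusted p = 0.0846) for Irgm1. Gbp genes resemble each other closely, so reads may be divided among them with error.

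The other 13 members did not pass in any comparison. Oas2, Mx1 and Mx2 reached at most 2.47, 2.03 and 2.18 CPM in any library. Mx1 and Mx2 encode dynamin-like antiviral proteins, and Mx1 is disrupted in C57BL/6 mice. Each of these 3 had a library without a count. Among the better expressed, Isg20, an exonuclease of RNA, was higher in all 4 libraries of ligature plus trauma than in all 4 of trauma, where 5.74% of all genes were. It stood at 27.7, 34.2, 41.2 and 23.6 against 21.3, 16, 17.1 and 22.8 CPM, with a log2 fold change of 0.72 ± 0.40 (SE, edgeR adjusted p = 0.351). Gbp2 lay above the controls in both ligature groups, with 0.79 ± 0.37 (SE, edgeR adjusted p = 0.159) in ligature plus trauma. Rsad2 (viperin) had its highest value, 38.3 CPM, in control 4, and Stat2 its lowest, 5.65 CPM, in ligature plus trauma 2. Over the 13, log2 fold changes averaged over trauma ran from -0.56 ± 0.92 (SE) for Mx2 to 0.77 ± 0.67 for Oas2, and for Oasl1, Cmpk2, Ifi35, Parp14, Iigp1 and Igtp they lay between -0.16 ± 0.16 and 0.42 ± 0.25.

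Ligature 2 stood apart from its group for most of the set. It was the highest of the 4 ligature libraries for 27 of 37 members, where it was so for 35.4% of all genes. It was the highest of all 16 for 12, a measure not counted over all genes. The mean over members of log2(CPM + 0.1), centred on each gene, was 0.96 in ligature 2 and -0.25 to -0.05 in the other 3. The excess over the mean of those 3 was 11.4-fold for Ifit1, 7.16-fold for Isg15, 5.56-fold for Ifit3 and 5.4-fold for Usp18. It followed transcript length: rho was -0.694 over the members. Of the 13 members with transcripts under 2000 bases, 13 lay above the group's median in ligature 2, by a median of 1.70 on the log2 scale, and of the 24 longer ones 16 did, by 0.66. Ifit2, Stat2, Ifih1 and Ddx58, with transcripts of 3818 to 4543 bases, were instead at their lowest of the group there. Ligature 2 also held the highest sum of skeletal muscle genes, 691 CPM against 5.91 to 126 in the other 3, and S100a8 and S100a9, which neutrophils express, were at their highest of the group there, at 710 and 579 CPM. The other neutrophil markers did not follow, with Csf3r at 13.7 against 29.1 to 46.3 CPM and Mmp8 at 21.1 against 24.6 to 27.2 CPM. The part of muscle, neutrophils and transcript length in the excess was not tested.

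Trauma 4 stood apart in another way. It was the highest of the 4 trauma libraries for 25 members, where it was so for 23.6% of all genes. It was the lowest for none, where it was so for 21.5% of all genes. The mean over members was 0.61 in trauma 4 and -0.38 to -0.16 in the other 3. Of the 37 members 14 were at least 2-fold above the mean of those 3, and they came from most roles. The share of all genes at least 2-fold above was not counted. The excess was 9.39-fold for the low Mx2, 8.5-fold for Cxcl9, 7.02-fold for Gbp5, 3.5-fold for Cxcl10, 3.39-fold for Zbp1, 3.31-fold for Gbp2 and 3.14-fold for Gbp3, and between 2.02- and 2.46-fold for Oasl2, Dhx58, Oas1a, Irf1, Oas2, Bst2 and Ifi44. Other members showed little, with 1.02-fold for Irgm1, 1.28-fold for Iigp1, 0.965-fold for Ifit1, 0.962-fold for Rsad2 and 0.869-fold for Usp18. Length did not separate the members here: 12 of 13 short and 21 of 24 long ones lay above the group's median, by medians of 0.48 and 0.47, and rho was -0.151. Its macrophage markers summed to 838 CPM against 388 to 579 in the other 3, with 5 of the 6 at their highest there and Mrc1 not. Its ligament fibroblast markers summed to 53381 against 24020 to 37546 CPM, most of it Postn and Aspn, and its epithelial keratins to 3890 against 8734 to 26115. Its T and NK cell markers summed to 2.40 CPM against 3.61 to 4.46. The part of these in the excess was not tested.

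The libraries of ligature plus trauma also spread widely. The mean over members was 0.33, 0.62, 0.68 and -0.26 in libraries 1 to 4. Library 3 was the highest of the group for 15 members, where it was so for 26.5% of all genes. It was the highest of all 16 for 9, a measure not counted over all genes. Library 4 was the lowest of the group for 24, where it was so for 22.8% of all genes. In library 4 rho was positive, at 0.602 over the members and 0.436 over all genes. Of its 13 short members 0 lay above the group's median. The difference behind this rho is taken from libraries that include the shifted 2 and 3, so its sign depends on them too. Between length and expression itself, rho over all genes was 0.239 in library 4 and 0.206 in library 1. It was 0.11 and 0.107 in libraries 2 and 3, and 0.22, 0.24 and 0.24 in ligature 1, 3 and 4. In libraries 2 and 3 rho of the difference over the members was -0.545 and -0.353. Neutrophil markers summed to 3351.5 and 3361.9 CPM there, against 616.33 and 960.58 in libraries 1 and 4. The long transcripts of Csf3r (57.3 and 30.2 against 23.8 and 22.9 CPM) and Cxcr2 (36.5 and 21.8 against 10.4 and 11.7 CPM) followed. Mmp8 was higher in library 2 alone, at 95.1 CPM. Inflammatory monocyte markers summed to 117 and 138 against 68.0 and 55.4 CPM, although Ccr2 was lower. The part of these cells and of length was not tested.

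**Figure D3:**
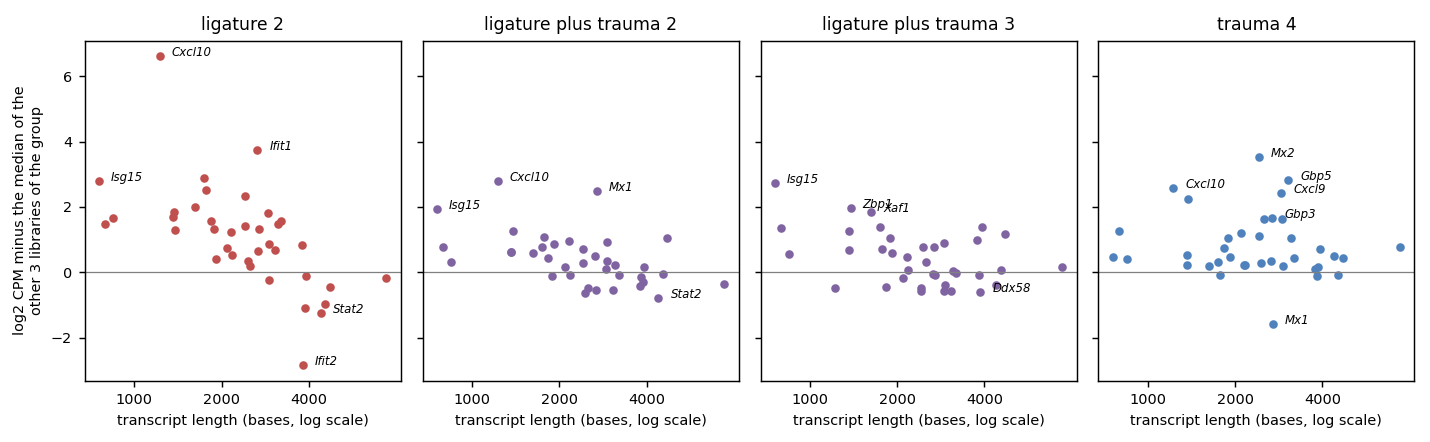
Each point is 1 of the 37 genes: its log2 CPM in the named library minus the median of the other 3 libraries of the group (vertical), against transcript length in bases (log scale, horizontal). The points fall with length in ligature 2, where all short transcripts and 16 of the 24 long ones lie above 0, and less steeply in ligature plus trauma 2 and 3, while in trauma 4 genes of all lengths lie above 0.

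The calls were fewer without the shifted libraries. These also had the highest means over members of all libraries, at 0.96 in ligature 2 and 0.62 and 0.68 in ligature plus trauma 2 and 3. Leaving them out takes away the highest values of the set and keeps only libraries 1 and 4 of ligature plus trauma. The effects of this, of the smaller number of libraries and of the shift cannot be told apart. In the 13 libraries without ligature 2 and ligature plus trauma 2 and 3, 0 members passed in ligature plus trauma against control, where 3.26% of all genes did, and 0 with the ligature averaged over trauma, where 13.1% did. The fold changes shrank unequally. In ligature plus trauma against control the value went to 0.91 ± 0.37 (SE, edgeR adjusted p = 0.212) for Bst2, 1.36 ± 0.68 (SE, edgeR adjusted p = 0.309) for Zbp1 and 0.73 ± 0.39 (SE, edgeR adjusted p = 0.341) for Rtp4. It stayed nearer for Ifi44, at 1.74 ± 0.62 (SE, edgeR adjusted p = 0.149), and for Gbp3, at 1.27 ± 0.49 (SE, edgeR adjusted p = 0.181). For Xaf1 it went from 1.60 ± 0.53 to 0.50 ± 0.27 (SE, edgeR adjusted p = 0.347).

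The averaged effects of the ligature shrank as well. In the 13 libraries they were 0.49 ± 0.28 (SE, edgeR adjusted p = 0.279) for Isg15, 0.42 ± 0.25 (SE, edgeR adjusted p = 0.314) for Bst2, 0.64 ± 0.46 (SE, edgeR adjusted p = 0.403) for Zbp1, 0.54 ± 0.26 (SE, edgeR adjusted p = 0.201) for Rtp4 and 0.17 ± 0.18 (SE, edgeR adjusted p = 0.598) for Xaf1. Those of Oas1a, Ifi44 and Gbp3 were 0.92 ± 0.36 (SE, edgeR adjusted p = 0.114), 0.95 ± 0.42 (SE, edgeR adjusted p = 0.162) and 0.80 ± 0.33 (SE, edgeR adjusted p = 0.132). In ligature against control, where ligature 2 alone was left out of the group, the value was 0.80 ± 0.37 (SE, edgeR adjusted p = 0.212) for Isg15, 1.56 ± 0.62 (SE, edgeR adjusted p = 0.147) for Zbp1, 1.22 ± 0.48 (SE, edgeR adjusted p = 0.143) for Oas1a, 1.35 ± 0.56 (SE, edgeR adjusted p = 0.17) for Ifi44 and 0.996 ± 0.44 (SE, edgeR adjusted p = 0.192) for Gbp3.

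Other settings gave other counts. When the trend with transcript length was taken out of each of the 16 libraries, a correction chosen after the data were seen, 9 members passed in ligature plus trauma against control, 10 with the ligature averaged over trauma, 4 in ligature against control (Oas1a, Ifi44, Gbp3 and Irgm1) and 1, Rtp4, in ligature plus trauma against trauma. The shares of all genes that passed there were 15.2%, 26.9%, 15.2% and 9.13%. Without ligature 2 and trauma 4 together, 10 members passed in ligature plus trauma against control, the 7 above among them, where 19.5% of all genes passed.

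Most calls did not hold in every fit that leaves out 1 library, and the share of all genes that passed changed too. Of the 7 members that rose in ligature plus trauma, 4 still passed without control 1, 2 without control 2, 2 without control 3 and 3 without control 4. The shares of all genes there were 6.2%, 6.07%, 9.02% and 7.2%, against 12.5% with all 16 libraries. Of the 7, 5 passed without ligature plus trauma 1, 1 without ligature plus trauma 2 and 0 without ligature plus trauma 3. There 11.1%, 5.07% and 4.71% of all genes passed. Without ligature plus trauma 4 all 7 passed, with Oasl2, Xaf1 and Irf7 besides, where 12.8% of all genes did. Oas1a passed in 7 of these 8 fits, failing without ligature plus trauma 3 at an adjusted p of 0.0553 in edgeR. Its single call in ligature against control held without ligature 3 and was lost without each of the other 7 libraries concerned. With the ligature averaged over trauma, Isg15, Oas1a and Rtp4 passed in all 16 fits that leave out 1 library, Bst2 in 14, Zbp1 and Gbp3 in 12 each, Ifi44 in 8 and Xaf1 in 5. The fewest of the 8 that rose, 4, passed without ligature 2 and again without ligature plus trauma 3, where 19.1% and 16.3% of all genes passed. Of the 8, 5 passed without control 2, without trauma 1 and without trauma 2, where 17.4%, 16.8% and 17.8% of all genes did. Without trauma 4 the count was 10, with Oasl2, Gbp2 and Gbp5 added and Xaf1 lost, where 18.7% of all genes passed. With all 16 libraries the share of all genes was 21.5%.

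**Figure D4:**
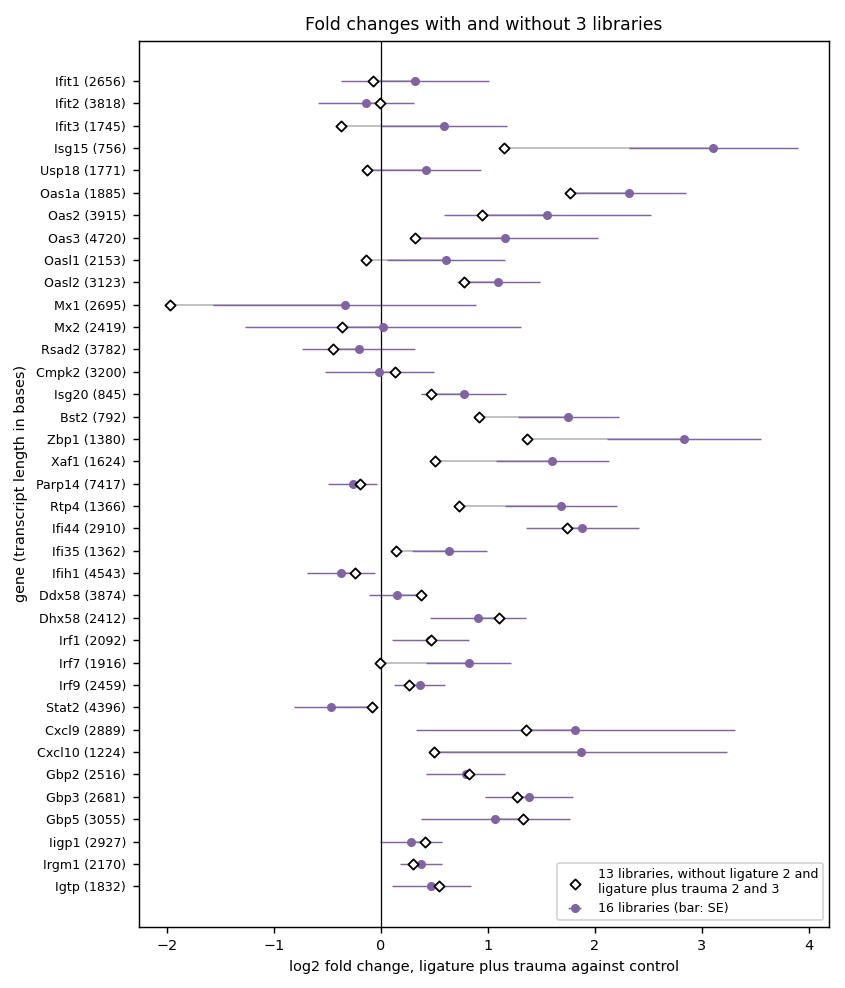
Log2 fold change of each of the 37 genes in ligature plus trauma against control from all 16 libraries (filled circles, bars are the SE) and from 13 libraries (open diamonds), with transcript length in bases beside each name. Isg15, Zbp1, Xaf1 and Rtp4 move far towards 0 without the 3 shifted libraries, while Ifi44 and Gbp3 move little.

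Adding the resin to the ligature left every member short of the threshold, and the intervals were wide. The log2 fold change of ligature plus trauma against ligature was 0.95 ± 0.73 (95% interval -0.60 to 2.51) for Isg15, 0.58 ± 0.51 (-0.50 to 1.66) for Oas1a, 0.21 ± 0.40 (-0.64 to 1.06) for Gbp3 and -1.46 ± 1.34 (-4.31 to 1.38) for Cxcl10. Each of these 4 intervals still holds changes of more than 2-fold. Over the set 25 of 37 were positive with a median of 0.10, against -0.01 over all genes, and it was 0.51 without ligature 2 and -0.0036 without ligature plus trauma 3. In the interaction 11 of 37 were positive with a median of -0.31, against -0.02. It was 0.06 without ligature 2, -0.51 without ligature plus trauma 3 and 0.32 without trauma 4 and ligature 2 together. In ligature plus trauma against trauma 29 were positive with a median of 0.19 (0.55 without trauma 4), against -0.02, and the largest was Isg15 at 2.14 ± 0.76 (SE, edgeR adjusted p = 0.123).

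Per length, the set spanned a wide range of levels in control tissue. Mean CPM per kilobase of transcript was highest for Isg20 at 21.9 and Ifi35 at 21.8, followed by Irgm1 at 14.7, Bst2 at 14.1 and Irf1 at 12.8. It was lowest for Cxcl9 at 0.071, Oas2 at 0.113 and Oas3 at 0.162. Of the members that rose, Bst2 and Rtp4 (8.61) were among the higher ones per length in control and Zbp1 (0.472) and Ifi44 (0.55) among the lower.

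Interferons themselves were all but undetected. Of the 11 ligand genes looked for, none reached the filter. Ifna1, Ifna2, Ifna4, Ifna5, Ifna9, Ifnl2 and Ifnl3 had no count in any library. Ifnb1 had 11 counts, all in ligature plus trauma 2, and Ifng 25 counts in all, 14 of them in 1 library, ligature 2. These counts are of RNA and say nothing of the amount of protein.

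Some genes of the receptors and of signalling rose with the ligature as well. Of 6 receptor subunits, Ifnar2, Ifngr2 and Il10rb rose in ligature against control, in ligature plus trauma against control and with the ligature averaged over trauma. That is 50% of the subunits each time, where 5.88%, 6.83% and 10.8% of all genes rose. None of the 6 passed as lower, but with the ligature averaged over trauma 2 had negative log2 fold changes, the lowest -0.99. Il10rb, a shared subunit of the type III receptor, stood at 61.5, 68.1, 49.5 and 54.7 CPM in control, 114, 111, 82.9 and 99.3 in ligature, 61, 64.2, 56.9 and 83.8 in trauma and 92, 94.8, 96.4 and 80.2 in ligature plus trauma. All 8 libraries with a ligature lay above the 4 controls. The log2 fold change of Il10rb averaged over trauma was 0.63 ± 0.12 (SE, edgeR adjusted p = 0.00224), and that of Ifngr2 was 0.48 ± 0.12 (SE, edgeR adjusted p = 0.00856). With the ligature averaged over trauma, Ifnar2, Ifngr2 and Il10rb each passed in all 16 fits that leave out 1 library, and in the 13 libraries Ifnar2 did not, at 0.46 (edgeR adjusted p = 0.114). Among the 8 such fits of ligature against control, Ifnar2 passed in 2, Ifngr2 in 2 and Il10rb in 8, and in ligature plus trauma against control they passed in 1, 0 and 2. Among the inhibitors, Socs3 rose by 2.19 ± 0.42 (SE, edgeR adjusted p = 0.0049) in ligature plus trauma, a call that held in all 8 fits that leave out 1 library. Pias1 fell by 0.72 ± 0.22 there (SE, edgeR adjusted p = 0.0397), which held in 2 of the 8.

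Tmem173 (STING), which turns sensing of cytosolic DNA into interferon production, had the lowest adjusted p of the pathway genes in the averaged effect of the ligature. It stood at 8.92, 9.66, 7.86 and 8.01 CPM in control, 32.2, 40.8, 26.5 and 31.2 in ligature, 4.74, 15.3, 10.7 and 11.9 in trauma and 31.4, 26.7, 26.1 and 24.9 in ligature plus trauma. The 8 libraries with a ligature lay at 24.9 to 40.8 CPM and the 8 without at 4.74 to 15.3 CPM. The log2 fold change averaged over trauma was 1.64 ± 0.19 (SE, edgeR adjusted p = 4.51e-05), and the call held in all 16 fits that leave out 1 library and in the 13 libraries, at 1.59 (edgeR adjusted p = 0.000641). Ikbke, a kinase of the same route, fell by 1.04 ± 0.20 on the log2 scale (SE, edgeR adjusted p = 0.00198). Irf5 fell by 0.70 ± 0.20 (SE, edgeR adjusted p = 0.0203). The endothelial and osteoclast markers given above, and Cd68 and Csf1r, were higher with the ligature, as Tmem173 was. Mrc1 and Adgre1 were lower with it, as Ikbke and Irf5 were. The part of these and other cells was not tested.

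Of 34 other interferon-stimulated genes tested, 6 rose and 0 fell in ligature against control, 6 rose and 0 fell in ligature plus trauma against control, and 9 rose and 2 fell with the ligature averaged over trauma. The shares that rose were 17.6%, 17.6% and 26.5%, where 5.88%, 6.83% and 10.8% of all genes rose and 4.78%, 5.62% and 10.7% fell. Ifitm3, which blocks entry of virus through endosomes, stood at 211, 259, 308 and 274 CPM in control, 853, 3256, 651 and 836 in ligature, 266, 699, 728 and 733 in trauma and 1163, 1688, 2173 and 718 in ligature plus trauma. All 8 libraries with a ligature lay above the controls, and so did trauma 2 to 4, with trauma 1 at the level of the controls. Ifitm3 had a log2 fold change of 2.45 ± 0.50 (SE, edgeR adjusted p = 0.00723) in ligature plus trauma, and 1.83 (edgeR adjusted p = 0.0134) in the 13 libraries. Psmb8, a subunit of the immunoproteasome, rose by 1.11 ± 0.25 (SE, edgeR adjusted p = 0.00592) averaged over trauma, and Ifi204, a DNA sensor of myeloid cells, fell by 1.20 ± 0.29 (SE, edgeR adjusted p = 0.00802). Both held in all 16 fits that leave out 1 library, and in the 13 libraries Psmb8 had an adjusted p of 0.0313 and Ifi204 of 0.0589 in edgeR. Over all 60 pathway genes tested outside the set, 15 rose (25%) and 5 fell with the ligature averaged over trauma, against the 10.8% and 10.7% of all genes. In the 13 libraries, where 13.1% of all genes passed, 12 of these 20 still did. In trauma against control 0 of the 60 passed, where 0.00477% of all genes did.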

How the data were processed

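RNA was sequenced from 16 libraries, 4 in each of 4 groups set by the treatment label. The deposited table holds the authors' read counts per gene, as whole numbers with no normalisation. Per the submitters' processing notes, which give no roles, the tools were HISAT2 2.2.1, StringTie 2.1.7, Trimmomatic 0.39, DESeq2 1.32.0 and FastQC 0.11.9, on build GRCm39. What counted the reads, with which annotation and strand setting, is not given in the sources used here, so reads of overlapping, antisense or near-identical genes (Oas1, Ifit, Mx and Gbp copies) cannot be told apart. Per the labels' protocols, mRNA was enriched by poly(A). Symbols and transcript lengths came from GENCODE M21 (GRCm38), and 52083 genes had a symbol.

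The deposited counts were scaled by trimmed means, filtered by group with a minimum count of 10 (filterByExpr in edgeR) and tested by edgeR's quasi-likelihood test, in edgeR 4.0.16 under R 4.3.3. The fit took in all 16 libraries, left 12 residual degrees of freedom, and p-values were adjusted by Benjamini-Hochberg over 20953 genes. CPM divides by the scaled total over those genes. A gene's SD is over the 4 libraries of a group, and its log2 fold change has an SE. Total counts of 58458102 to 77468584 leave the spread between libraries, not counting error, as the limit for all but the lowest genes. Where a library had no count, the limit given is 3 counts of its total and covers counting error only. The closest pair of libraries correlated at 0.948 on log2 CPM, so none was taken as a repeat of another.

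The members, other gene lists and tests were chosen with earlier results of these data known. Every value is given for members that passed in a comparison and for up to 3 per role with the lowest unadjusted p over the 2 averaged comparisons, and the others are given by range. Alternatives were DESeq2 1.42.0, its size factors in edgeR, limma-voom with sample weights (limma 3.58.1), no filter, a stricter filter (50 counts in 4 libraries), the compared groups alone, the replicate number as a block, each library left out, 13 libraries without the 3 shifted to short transcripts, 13 without the 3 highest in muscle genes, 14 without trauma 4 and ligature 2, and, added after seeing the data, a spline on length (5 degrees of freedom). The steps were tested on simulated data.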

Additional observations from a re-analysis of the deposited data

Results flagged for a closer look

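Within each group of 4 libraries, the gap between the highest or lowest library and its nearest neighbour was set against the group's range. Both were taken on log2(CPM + 0.1) and judged by Dixon's 95% criterion. Of 148 pairs of a gene and a group 8 exceeded it on that scale, or 5.41%, where chance gives about 1 in 20. CPM without the log was not tested. Cxcl10 was not flagged, at 55.6 CPM in ligature 2 against 0.52 to 1.83 CPM in the rest of its group. In ligature 2, 3 genes stood above the rest of their group: Isg15 at 21.2 CPM, Usp18 at 29.5 CPM and Xaf1 at 38.7 CPM. In trauma 4, Bst2 stood above the other trauma libraries at 34.8 CPM. Cmpk2, a mitochondrial nucleotide kinase, stood above its group in ligature plus trauma 1 at 4.09 CPM, a value within the range of the other groups. On the low side, Ifit2 was at 7.19 CPM in control 4. Oas2 was at 0 CPM in trauma 3 and Oas3 at 0 CPM in control 3, where a count of 0 allows up to 3 counts, or 0.0513 and 0.0387 CPM of the unscaled totals.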

How the results depend on the processing

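The number of members that passed in ligature plus trauma against control was 7 and ranged from 0 to 10 when 1 library was left out. With the ligature averaged over trauma it was 8 (4 to 10), in ligature against control 1 (0 to 1) and in ligature plus trauma against trauma 0 (0 to 1). In the fits of these 4 comparisons that leave out 1 library, 4.71% to 12.8%, 16.3% to 21.8%, 6.58% to 9.1% and 2.6% to 4.61% of all genes passed. Ligature against control, with 10.7% of all genes passing, gave 0 with no filter (5.12%), with the compared groups alone (7.24%), in the 13 libraries without the shifted ones (7.99%) or without the muscle-rich ones (2.7%) and in the 14 libraries (7.18%), 4 with the length trend removed (15.2%) and 6 with DESeq2 (11.8%), each share being that of all genes in the same fit. Ligature averaged over trauma (21.5%) gave 5 with limma-voom (22.1%), 0 in the 13 libraries without the 3 shifted to short transcripts (13.1%) and 2 in the 13 without those highest in muscle genes (13.2%). Ligature plus trauma against control (12.5%) gave 0 in the former (3.26%). Ligature plus trauma against trauma (5.48%) gave 2 with DESeq2 (6.62%), 1 with the length trend removed (9.13%), 1 without the muscle-rich libraries (5.68%) and 3 in the 14 libraries (6.37%). The shares with DESeq2 and with no filter are over the 32711 genes with any count, against 20953 in the main fit, so they are not on a like footing. The median in ligature against control was 0.66 and went to 0.23 in the 13 libraries without the shifted ones and to 0.23 in the 14, and ran from 0.23 to 0.81 over single libraries left out. The median of the interaction went to 0.14 without the muscle-rich libraries and to 0.32 in the 14. Cxcl10 in ligature against control turned from 3.33 to -0.61 without ligature 2, to -0.60 without the shifted libraries, to -1.83 without the muscle-rich ones and to -0.61 without trauma 4 and ligature 2, and ran from -0.61 to 4.81 over single libraries left out. Where no value shows it, the cause was not tested.

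Numbers in the labels did not pair the libraries: over 24 pairs of the same number in different groups, deviations from the group means correlated at -0.157 to 0.215, 5 pairs were over 0.1, and 4 of 16 libraries lay closest to their own number. With the replicate number as a block, 6 members passed in ligature plus trauma against control, 6 with the ligature averaged over trauma and 1 in ligature against control, Ifi44 in place of Oas1a, where 12.4%, 20.8% and 9.94% of all genes passed.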
